A study of Mus musculus with 12 samples.

Results

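The 42 genes described here encode proteins of mitosis and cytokinesis. They cover mitotic kinases and cyclins, the spindle checkpoint, partners of the anaphase promoting complex, and kinetochore and passenger complex proteins. Spindle motors and the proteins that separate the daughter cells are also among them. The 42 genes were taken as a named list, without a threshold on any measured value but with earlier results of these data known. All were found among the 12441 genes measured. RNA was sequenced from mouse bone marrow-derived macrophages, primary cells grown out of marrow for 6 days in medium conditioned by L929 cells, a fibroblast line that supplies macrophage growth factor. The cells were wild type (WT) or homozygous for the D316Y substitution in COQ6, an enzyme of coenzyme Q synthesis, and each genotype was left unstimulated or given lipopolysaccharide (LPS, a component of the bacterial outer membrane) at 100 ng/mL for 24 h. Each of the 4 groups had 3 libraries. The titles give 24 h for the LPS-treated libraries and no time for the unstimulated ones. If those were collected earlier, LPS and longer culture cannot be told apart. The labels used here give no age of the mice and no further allele, and do not say whether libraries of a group came from separate animals or cultures. The p-values therefore measure only the spread between these samples, which may be technical. D316Y changes a codon, so the level of Coq6 does not check the genotype labels.

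Entry into mitosis is driven by CDK1 bound to B-type cyclins, and exit by the anaphase promoting complex, which marks those cyclins and securin for destruction. Most genes of this machinery are transcribed in G2 and M phase, so in a mixed culture their RNA is carried mainly by dividing cells. Macrophages kept in their growth factor proliferate, and LPS is known to halt their cycle. In bulk RNA, fewer dividing cells and less of these transcripts per dividing cell cannot be told apart.

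The libraries held 32.8 to 47.2 M reads in the table. Values are log2 CPM, the log2 of reads per M of an effective library size that the values imply. That size was above the reads in the table in every unstimulated library and below them in every LPS-treated one. The first unstimulated WT library had a size of 55.8 M for 46.9 M reads, and the second LPS-treated WT library 38.0 M for 46.1 M reads. Sums in CPM and levels per kb per M reads use the same size. All 9 macrophage markers were listed, with a summed level of 35203 to 39484 CPM in unstimulated WT and 64672 to 70815 CPM in LPS-treated WT. In D316Y the sum was 32605 to 35621 CPM without LPS and 54943 to 63794 CPM with it, the latter below the WT range with LPS. That sum is carried by Lyz2, and single markers went either way: Cd68 was at 11.43, 10.66 and 10.87 log2 CPM in unstimulated WT and 9.62, 9.53 and 9.56 with LPS, and Mrc1 at 7.10, 6.31 and 6.18 and at 2.85, 3.30 and 3.01. A check list of 8 LPS response genes summed in WT to 136 to 204 CPM without LPS and 17414 to 19424 CPM with it, and in D316Y to 75.7 to 154 CPM and 15042 to 18616 CPM. Of 9 myeloid progenitor markers only Kit and Cd34 were listed, with a sum of 2.72 to 3.57 CPM in unstimulated WT, 0.42 to 0.88 CPM in LPS-treated WT, and 1.99 to 2.99 CPM and 0.27 to 0.85 CPM in the same groups of D316Y. None of 8 erythroid markers was listed. The 6 of 9 neutrophil markers that were listed summed to 13.8 to 24.0 CPM in unstimulated WT and 41.6 to 63.6 CPM in LPS-treated WT. In D316Y these 6 markers summed to 20.9 to 34.5 CPM without LPS and 50.3 to 60.1 CPM with it. Of these, S100a8 and Camp were higher in every LPS-treated WT library than in any unstimulated one, and Ngp and Ltf were lower in every one. The part of other cell types in the results was not tested.

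Nearly all of the 42 genes were lower with LPS than without it in both genotypes. In WT, 41 of the 42 genes fell and 0 rose at an adjusted p under 0.05 (limma, Benjamini-Hochberg over 11663 genes), where 19.0% of all genes tested fell and 18.1% rose. The median difference of the 42 genes was -2.07 on the log2 scale, a 4.19-fold lower level, against -0.01 over all genes tested. In D316Y, 41 of 42 again fell and 0 rose, where 19.0% of 11795 genes fell and 19.4% rose. The median difference there was -2.13, or 4.37-fold lower, against -0.03 over all genes. A fall of at least 2 on the log2 scale was called for 24 of the 42 genes in WT, against 3.71% of all genes, and for 27 of 42 in D316Y, against 3.81%. The LPS-treated libraries lay below the unstimulated ones without overlap for 41 of the genes in WT (23.9% of all genes) and for 40 in D316Y (26.1%). Genes were tested when 1 of the groups compared averaged at least 0 log2 CPM. In each genotype 37 of the 42 reached this in both groups and 5 in the unstimulated group alone. Cenpf, Aspm, Kif15 and Kif4 did so in both genotypes, Cdc25c in WT and Ttk in D316Y. Since these passed only where they were high, their LPS differences are a description. In each genotype its 5 such genes are among the 41 that fell and among those called with a fall of at least 2. With no such filter 41 genes fell in each genotype as well.

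**Figure D1:**
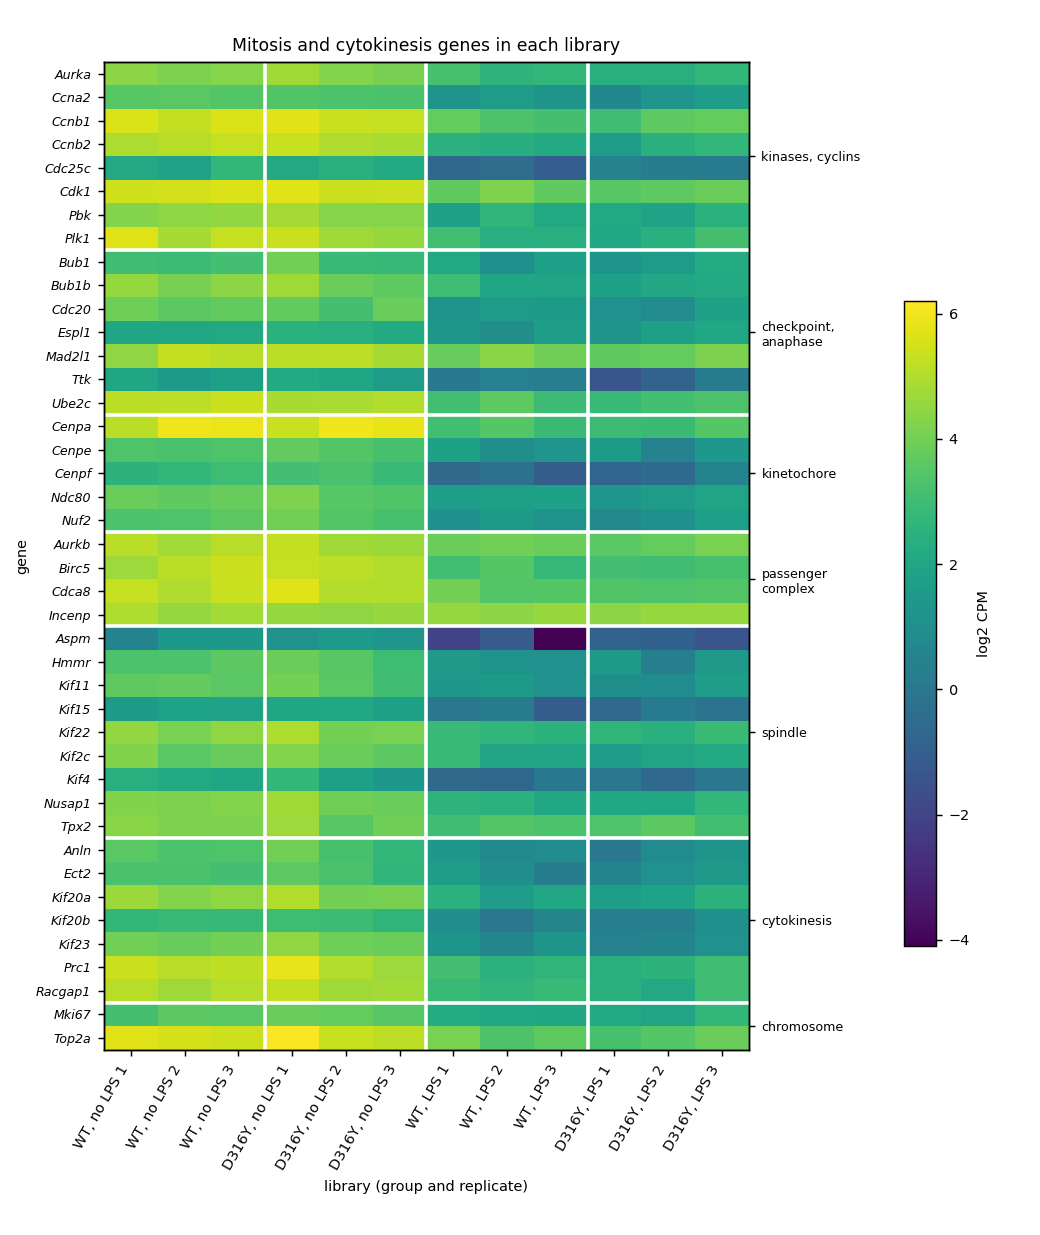
Level of each of the 42 genes (rows, grouped by role) in each of the 12 libraries (columns), as log2 CPM on the colour scale. In 41 rows the 3 WT libraries without LPS are brighter than the 3 WT libraries with LPS, and the row of Incenp has nearly one shade throughout.

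Promoters of such genes are known for the cell cycle genes homology region (CHR) and the CCAAT box, short elements recognised by the MuvB complexes and by NF-Y. Promoters of 300 bases, from 250 before to 50 after the start site, were matched by symbol for 35 of the 42 genes in RefSeq (GRCm38.p6). The 3 printed here belong to Aspm, Cenpf and Kif23, the matched genes with the steepest falls in WT. They run 5′ to 3′ on the strand of the gene, and capitals mark the CHR (TTTGAA) and the CCAAT box (CCAAT, or ATTGG on the other strand). Aspm lies on the plus strand at chr1:139454523-139454822, Cenpf on the minus strand at chr1:189688037-189688336 and Kif23 on the minus strand at chr9:61946750-61947049.
Aspm: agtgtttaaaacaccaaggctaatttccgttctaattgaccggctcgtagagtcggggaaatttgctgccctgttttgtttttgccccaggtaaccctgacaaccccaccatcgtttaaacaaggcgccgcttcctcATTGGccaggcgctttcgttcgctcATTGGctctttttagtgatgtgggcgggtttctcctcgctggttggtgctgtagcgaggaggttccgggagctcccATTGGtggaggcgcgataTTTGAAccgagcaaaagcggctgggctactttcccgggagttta
Cenpf: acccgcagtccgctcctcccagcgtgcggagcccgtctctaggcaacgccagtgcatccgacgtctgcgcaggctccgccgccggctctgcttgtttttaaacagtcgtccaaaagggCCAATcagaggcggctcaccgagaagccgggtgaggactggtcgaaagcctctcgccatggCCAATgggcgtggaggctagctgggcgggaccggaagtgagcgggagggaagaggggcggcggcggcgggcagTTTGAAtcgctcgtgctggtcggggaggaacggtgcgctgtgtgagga
Kif23: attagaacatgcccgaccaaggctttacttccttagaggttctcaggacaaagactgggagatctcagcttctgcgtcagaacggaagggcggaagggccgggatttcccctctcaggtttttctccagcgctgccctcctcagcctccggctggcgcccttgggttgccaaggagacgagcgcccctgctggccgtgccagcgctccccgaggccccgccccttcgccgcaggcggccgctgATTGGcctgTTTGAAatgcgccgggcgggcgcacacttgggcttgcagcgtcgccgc
Counting the start site as base 1, the CHR begins at base 7 in Aspm and at base 3 in both Cenpf and Kif23. The CCAAT boxes begin at bases -113, -88 and -12 in Aspm, at -132 and -71 in Cenpf and at -7 in Kif23.

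TTTGAA, on either strand, was in 28 of the 35 promoters (80.0%) and in 14.61% of the promoters of the 8972 genes of the table that had one. Within 50 bases of the start site it was in 26 of the 35 (74.29%), against 3.92%. CCAAT, on either strand, was in 26 (74.29%), against 43.12%, and both motifs were in 23 (65.71%), against 6.07%. GCGGGAA, a form of the E2F site, was in 0 of the 35 windows and in 9.91% of those of the table's genes. None of these 3 motifs contains another. The median LPS difference in WT was -2.16 for the 28 genes with TTTGAA and -1.98 for the 7 without it. The ranges overlapped, from -3.52 to -0.73 with it and from -2.16 to -0.91 without it. No promoter was matched for Aurkb, Ccna2, Cdc25c (-2.91), Incenp (-0.24), Kif20a, Pbk and Tpx2, which are in neither set. A match of letters is a description and does not show binding.

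All 8 kinases, cyclins and activators of mitotic entry fell in both genotypes, with a median difference of -2.20 in WT and -2.04 in D316Y. Cdc25c, the phosphatase that activates CDK1, stood at 2.10, 1.85 and 2.72 log2 CPM in unstimulated WT and at -0.65, -0.42 and -1.01 with LPS. The treated libraries were all lower, and the difference was -2.91 (SE 0.26, limma adjusted p = 1.80e-06). Cdc25c passed the filter in WT only through the unstimulated group, so this is a description. Ccnb2, a B-type cyclin, was at 4.91, 5.08 and 5.31 log2 CPM in WT without LPS and at 2.49, 2.33 and 2.19 with it. In D316Y the same gene was at 5.34, 4.97 and 4.90 without LPS and at 1.58, 2.44 and 2.72 with it. The groups were apart in each genotype, by -2.76 (SE 0.25) in WT and -2.83 (SE 0.25) in D316Y. Per length of exons, Ccnb2 had the highest level of the 42 genes in unstimulated WT, at 22.6 ± 3.16 reads per kb per M reads (SD, n = 3), and Plk1, the polo kinase, came next at 18.1 ± 5.21. These neighbours differed by less than the spread of Plk1. With LPS, Ccnb2 was at 3.30 ± 0.352 and Plk1 at 2.86 ± 0.825 on the same scale. Cdk1 itself, the kinase at the centre of the process, differed by -1.71 in WT and -1.82 in D316Y, and Aurka, the centrosomal Aurora kinase, by -1.45 and -1.88.

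The 7 genes of the checkpoint, of partners of the anaphase promoting complex (Cdc20 and Ube2c) and of separase all fell. Their median was -1.49 in WT and -1.82 in D316Y, and none encodes a subunit of that complex. Cdc20, the activator of the anaphase promoting complex, was at 3.92, 3.61 and 3.71 log2 CPM in unstimulated WT and at 1.18, 1.56 and 1.50 with LPS. Bub1b, a checkpoint protein that restrains CDC20, was at 4.55, 4.08 and 4.40 and at 3.02, 2.00 and 1.91 in those groups. Neither gene overlapped between conditions, and the differences were -2.33 (SE 0.25) and -2.03 (SE 0.31). The smallest change of the group was in Espl1, the separase that cuts cohesin at anaphase. Espl1 was at 1.96, 2.06 and 2.14 log2 CPM in unstimulated WT and at 1.33, 0.99 and 1.65 with LPS, so its groups were apart by a narrow margin. Its difference was -0.73 (SE 0.23, limma adjusted p = 0.0235) in WT and -0.68 (SE 0.23, adjusted p = 0.0321) in D316Y. The WT call was lost without unstimulated replicate 2 (adjusted p = 0.0564) or 3 (0.0714) or without LPS replicate 2 (0.0999), and the D316Y call without unstimulated replicate 1 (0.0896) or 2 (0.0752) or LPS replicate 1 (0.151) or 2 (0.0612). Over all alternatives its adjusted p ran from 0.000997 to 0.0999 in WT and from 0.00128 to 0.151 in D316Y.

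All 5 centromere and kinetochore genes fell, with a median of -2.16 in WT and -2.39 in D316Y. Cenpf, a large kinetochore protein that accumulates in G2, was at 2.57, 2.72 and 3.00 log2 CPM in unstimulated WT and at -0.55, -0.27 and -1.08 with LPS. In D316Y it was at 3.14, 3.24 and 2.86 without LPS and at -0.76, -0.51 and 0.54 with it. The highest treated library was far below the lowest unstimulated one in both genotypes, with differences of -3.40 (SE 0.33) and -3.32 (SE 0.33). Cenpa, the histone variant that marks centromeres, was at 5.14, 5.94 and 5.92 log2 CPM in unstimulated WT and at 3.08, 3.48 and 2.92 with LPS, a difference of -2.51 (SE 0.25).

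The chromosomal passenger complex, which corrects faulty spindle attachments and later moves to the midzone, was unequal in its response. Birc5 (survivin), Cdca8 (borealin) and Aurkb (the kinase) fell in both genotypes, and Incenp, the scaffold that holds them, passed the test in neither. Birc5 was at 4.70, 5.15 and 5.38 log2 CPM in unstimulated WT and at 3.07, 3.48 and 2.76 with LPS, a difference of -1.98 (SE 0.20). Cdca8 was at 5.31, 4.96 and 5.34 and at 4.03, 3.44 and 3.49 in those groups, a difference of -1.55 (SE 0.21). Aurkb differed by -1.09 (SE 0.19) in WT and -1.05 (SE 0.19) in D316Y. Incenp, named here after its values were seen, was at 4.96, 4.59 and 4.76 log2 CPM in unstimulated WT and at 4.58, 4.40 and 4.59 with LPS. In D316Y it was at 4.55, 4.48 and 4.63 without LPS and at 4.40, 4.57 and 4.58 with it. These groups overlapped, and the differences were -0.24 (95% confidence interval -0.52 to 0.04, limma adjusted p = 0.162) and -0.04 (-0.32 to 0.24, adjusted p = 0.839). Scaled to the reads in the table instead, which moved the median of all genes by -0.52 in WT and -0.53 in D316Y, Incenp passed at -0.75 (adjusted p = 0.00042) and -0.55 (adjusted p = 0.00325). Those are the lowest values over all alternatives, of which the highest were 0.433 and 0.992. Per length of exons, Incenp ranked 13 of the 42 in unstimulated WT, at 6.34 ± 0.829 reads per kb per M reads, and first with LPS, at 5.33 ± 0.388 beside Aurkb at 5.13 ± 0.333, which lay within that spread.

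**Figure D2:**
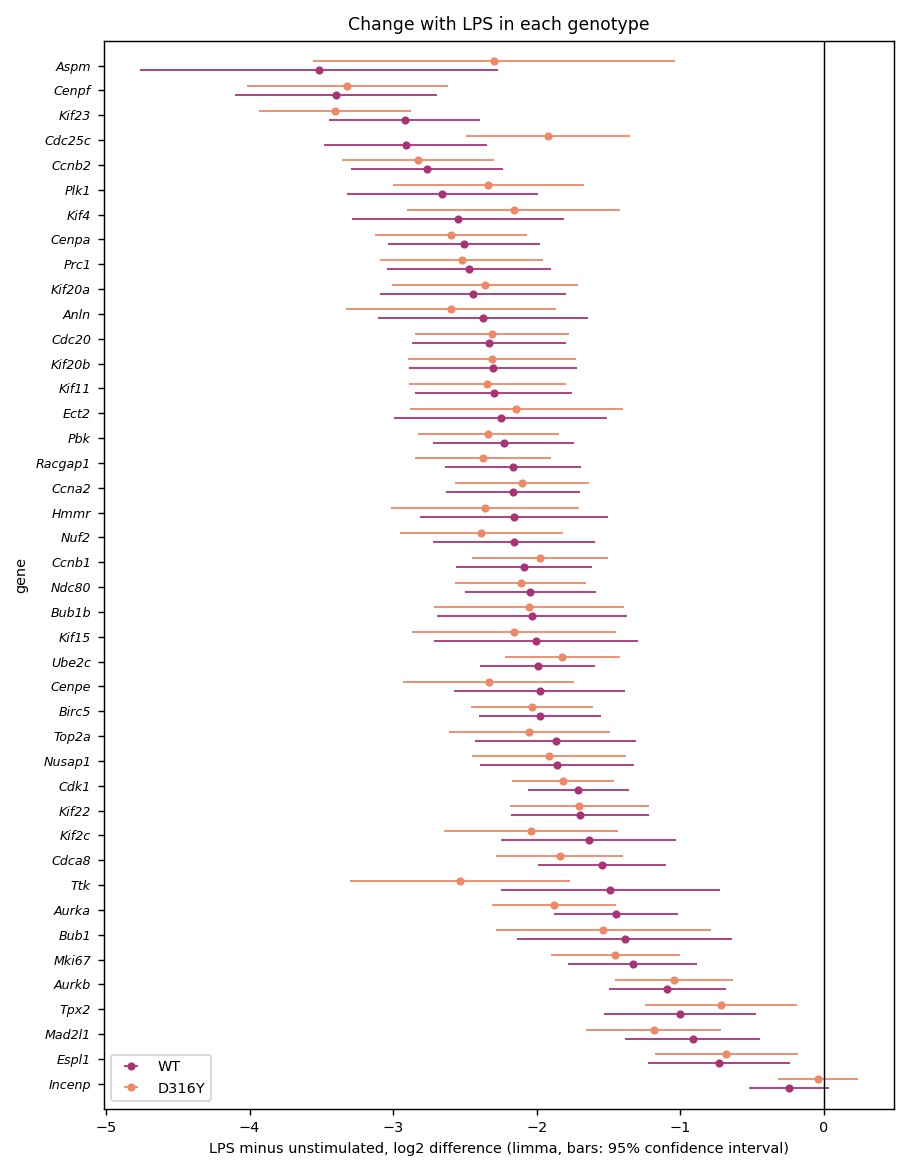
Difference with LPS (log2, LPS minus unstimulated) of the 42 genes in WT and D316Y, from limma, with 95% confidence intervals as bars. Every point lies left of 0, from Aspm at -3.52 to Incenp at -0.24 in WT, and the interval of Incenp includes 0 in both genotypes.

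All 9 spindle motors and microtubule proteins fell in both genotypes, with a median of -2.01 in WT and -2.16 in D316Y. Aspm, which organises spindle poles, was at 0.55, 1.39 and 1.41 log2 CPM in unstimulated WT and at -2.04, -1.12 and -4.04 with LPS. The treated values rest on 10, 17 and 2 reads, and those of D316Y, -0.83, -0.88 and -1.38 log2 CPM, on 20, 20 and 12 reads. The groups did not overlap, and the difference was -3.52 (SE 0.58) in WT and -2.30 (SE 0.58) in D316Y. Kif4, a chromokinesin that also works at the midzone, was at 2.40, 2.17 and 1.94 log2 CPM in unstimulated WT and at -0.55, -0.63 and 0.04 with LPS, a difference of -2.55 (SE 0.34). Tpx2, which activates Aurora A on the spindle and is named here after its values were seen, had the smallest change of the group. It was at 4.39, 4.18 and 4.17 log2 CPM in unstimulated WT and at 3.04, 3.43 and 3.27 with LPS, a difference of -1.004 (SE 0.25, limma adjusted p = 0.00562) without overlap. In D316Y it was at 4.70, 3.52 and 3.97 without LPS and at 3.38, 3.60 and 3.07 with it, so the groups overlapped, and the difference was -0.71 (SE 0.25, adjusted p = 0.0341). Without D316Y unstimulated replicate 1 that difference was -0.40 (adjusted p = 0.138), and the call was also lost without unstimulated replicate 3 (0.0546), LPS replicate 1 (0.0746) or LPS replicate 3 (0.131). Over all alternatives its adjusted p in D316Y ran from 0.000598 to 0.138.

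The 7 genes of the central spindle and cytokinesis had the largest median fall of the role groups in WT, at -2.37. Their median in D316Y was also -2.37, where the centromere and kinetochore genes were slightly lower, at -2.39. Kif23, the motor of centralspindlin, was at 4.03, 3.79 and 4.03 log2 CPM in unstimulated WT and at 1.25, 0.60 and 1.24 with LPS. In D316Y it was at 4.47, 3.92 and 3.87 without LPS and at 0.41, 0.53 and 1.11 with it. The groups were well apart, with differences of -2.92 (SE 0.24) in WT and -3.40 (SE 0.24) in D316Y. Prc1, which bundles midzone microtubules, was at 5.36, 5.09 and 5.21 log2 CPM in unstimulated WT and at 3.11, 2.48 and 2.64 with LPS, a difference of -2.47 (SE 0.26). Of the last 2 genes, Top2a, which untangles sister chromatids, was at 5.72, 5.54 and 5.41 log2 CPM in unstimulated WT and at 4.13, 3.31 and 3.63 with LPS. Mki67, the proliferation marker Ki-67, was at 3.16, 3.61 and 3.56 and at 2.27, 2.07 and 1.99 in those groups. Both were lower in every treated library, by -1.87 (SE 0.26) for Top2a and -1.33 (SE 0.21) for Mki67.

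Other cell cycle genes, taken from 8 lists that hold none of the 42, were set beside them in the same fit. Of 34 other spindle, centrosome and division genes, 27 fell and 0 rose in WT, with a median of -1.88, and 29 fell in D316Y. Pimreg (-2.59), Cdkn3 (-2.39) and Cdca3 (-2.22) had the smallest adjusted p in WT. Of 34 other kinetochore genes, 26 fell and 1 rose in WT, with a median of -1.09, and 25 fell and 1 rose in D316Y. The gene that rose, named after its values were seen, was Trip13, which disassembles checkpoint complexes, at 1.37 in WT and 1.00 in D316Y. All 18 replication licensing and S phase genes fell in both genotypes, with a median of -1.53 in WT. Of 21 cohesin and condensin genes, 14 fell and 1 rose in WT, and 16 fell and 1 rose in D316Y. Ncapd2 (-1.85), Ncapg (-1.76) and Smc2 (-1.45), all condensin subunits, had the smallest adjusted p in WT. The gene that rose, also named after its values were seen, was Pttg1, the securin that inhibits separase, at 1.19 in WT and 1.54 in D316Y.

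A list of 17 genes held subunits of the anaphase promoting complex with some of its regulators. Of these, 2 fell and 1 rose in WT, and 2 fell and 2 rose in D316Y, where 19.0% of all genes fell in each genotype and 18.1% and 19.4% rose. The medians were -0.09 and -0.11, while Cdc20 and Ube2c, an activator and a ubiquitin-conjugating enzyme of the complex among the 42, both fell. The 2 that fell in WT were Fbxo5 (-1.67), which encodes the inhibitor EMI1 and no subunit, and the subunit gene Anapc15 (-0.80). Scaled to the reads in the table, 13 of the 17 fell in WT and 11 in D316Y, and 0 rose. Of 23 regulators of mitotic transcription, 11 fell and 0 rose in WT, and 10 fell and 1 rose in D316Y. E2f7 (-2.98), E2f2 (-1.996) and Foxm1 (-2.45), the last an activator of G2 and M genes, had the smallest adjusted p in WT, and Mybl2, its partner in MuvB complexes and named after its values were seen, was at -2.27. Of 12 G1 cyclins, CDKs and related genes, 6 fell and 2 rose in WT. Myc (-5.31) and Ccnd1 (-3.14) fell, and Ccnd3 (1.24) and Ccnd2 (1.29), named after their values were seen, rose. Pttg1, Trip13, Ccnd2 and Ccnd3 were also higher under that scaling, at 0.68, 0.87, 0.78 and 0.73 in WT. Of 12 CDK inhibitors and antiproliferative genes tested, 3 rose and 2 fell in WT and 6 rose and 3 fell in D316Y, against the shares of all genes given above. The medians were 0.29 and 0.45, which became -0.22 and -0.08 under scaling to the reads in the table. Under that scaling 3 rose and 3 fell in WT, and 2 rose and 6 fell of the 13 tested in D316Y.

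**Figure D3:**
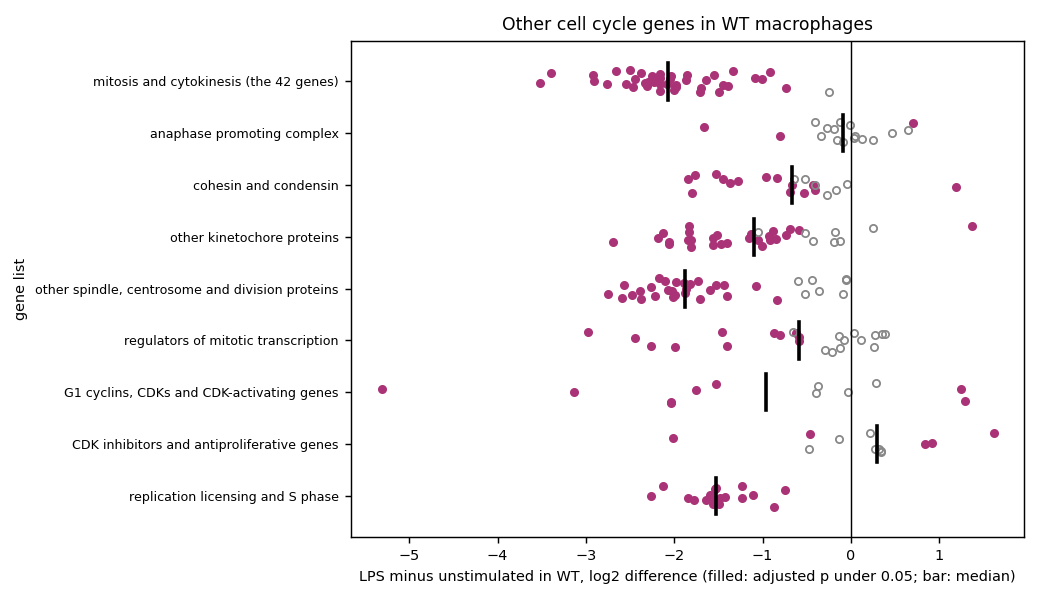
LPS difference in WT (log2) of the 42 genes and of 8 other cell cycle lists, 1 point per gene, filled where the adjusted p was under 0.05, with a bar at the median of each list. By median, the 42 genes and the other spindle genes lie farthest left, at -2.07 and -1.88. The anaphase promoting complex lies around 0 with a median of -0.09.

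Between genotypes, no member passed the test in either condition. Without LPS, 0 of the 42 genes were called in limma, where 0.00868% of 11525 genes were (1 gene), and 0 of 42 had an unadjusted p under 0.05, against 2.92% of all genes. The differences (D316Y minus WT) ran from -0.38 for Plk1 to 0.31 for Cenpf, with 20 above and 22 below 0 and a median of -0.01. The smallest p values belonged to Ube2c, Espl1 and Cenpf. Ube2c was at 5.12, 5.16 and 5.39 log2 CPM in WT and at 4.86, 4.88 and 5.02 in D316Y, lower without overlap, with a difference of -0.30 (95% confidence interval -0.64 to 0.03, limma adjusted p = 0.942). Espl1 was at 2.497, 2.35 and 2.21 log2 CPM in D316Y, above all 3 WT values given before, with a difference of 0.30 (-0.11 to 0.71, adjusted p = 0.942). In Cenpf, the groups overlapped and the interval was -0.12 to 0.74. Ccna2 was also lower without overlap, so 2 genes were lower and 1 higher in this way, against 5.18% and 2.95% of all genes.

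With LPS, 38 of the 42 genes reached the filter, and Cenpf, Aspm, Kif15 and Kif4 did not. Of the 38, 0 were called, where 0.0442% of 11306 genes were (5 genes), and 10 were above and 28 below 0, with a median of -0.10. With no filter, 14 of the 42 were above and 28 below 0, and 0 were called. Just 1 of the 38 had an unadjusted p under 0.05, against 6.5% of all genes. That gene was Cdc25c, which reached the filter through D316Y alone (mean 0.32 log2 CPM, against -0.69 in WT). It was at 0.50, 0.27 and 0.20 log2 CPM in LPS-treated D316Y, from 51, 45 and 37 reads, against the WT values of -0.65, -0.42 and -1.01, from 27, 28 and 20 reads. Its groups did not overlap, where 5.7% of all genes were higher and 6.79% lower without overlap. Since it passed only where it was high, this is a description, and the difference was 1.01 (95% confidence interval 0.29 to 1.73, limma adjusted p = 0.582). Ttk, the checkpoint kinase MPS1, reached the filter through WT alone (mean 0.26 log2 CPM, against -0.62 in D316Y). It was at 0.08, 0.41 and 0.29 log2 CPM in WT and at -1.33, -0.81 and 0.28 in D316Y, where 1 library lay within the WT range, with a difference of -0.88 (-1.80 to 0.03, adjusted p = 0.774). Aurka was at 3.20, 2.62 and 2.72 in WT and at 2.38, 2.38 and 2.70 in D316Y, which overlapped, with a difference of -0.36 (-0.80 to 0.09).

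The change with LPS was compared between genotypes as an interaction, in which 0 of the 42 genes and 0.0% of 11918 genes were called. An unadjusted p under 0.05 was found for 1 of the 42 genes, against 2.11% of all genes. It was again Cdc25c, with an interaction of 0.99 (95% confidence interval 0.19 to 1.80, limma adjusted p = 0.999). Ttk was next, at -1.05 (-2.13 to 0.03), and Aurka at -0.43 (-1.04 to 0.18). This test uses the same LPS-treated libraries as the comparison before it. In simulated data, each gene kept its mean level over the 12 libraries, and the spread was set by a dispersion of 0.05, with genes independent. Changes of 1 on the log2 scale between genotypes under LPS were found for 64% of genes and changes of 2 for 100%. In the real comparison between genotypes under LPS, the median SE was 0.257 for the members tested and 0.177 over all genes. Nearly all members also lay lower with LPS than in the mean over the 12 libraries used for the simulation. The shares found may therefore be too high for the members, and smaller differences could be missed. In the authors' deposited tables, 0 of the 42 genes had an adjusted p under 0.05 in either condition, and the smallest values were 0.203 for Plk1 without LPS and 0.232 for Aspm with LPS. In the authors' deposited tables, 8 of the 42 log2 fold changes were above 0 without LPS, with a median of -0.18 and 4 unadjusted p under 0.05, which is not the split of 20 and 22 found here. With LPS 13 were above 0 in the authors' deposited table, with a median of -0.08 and 3 unadjusted p under 0.05. The cause of the difference from the fit used here was not tested.

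**Figure D4:**
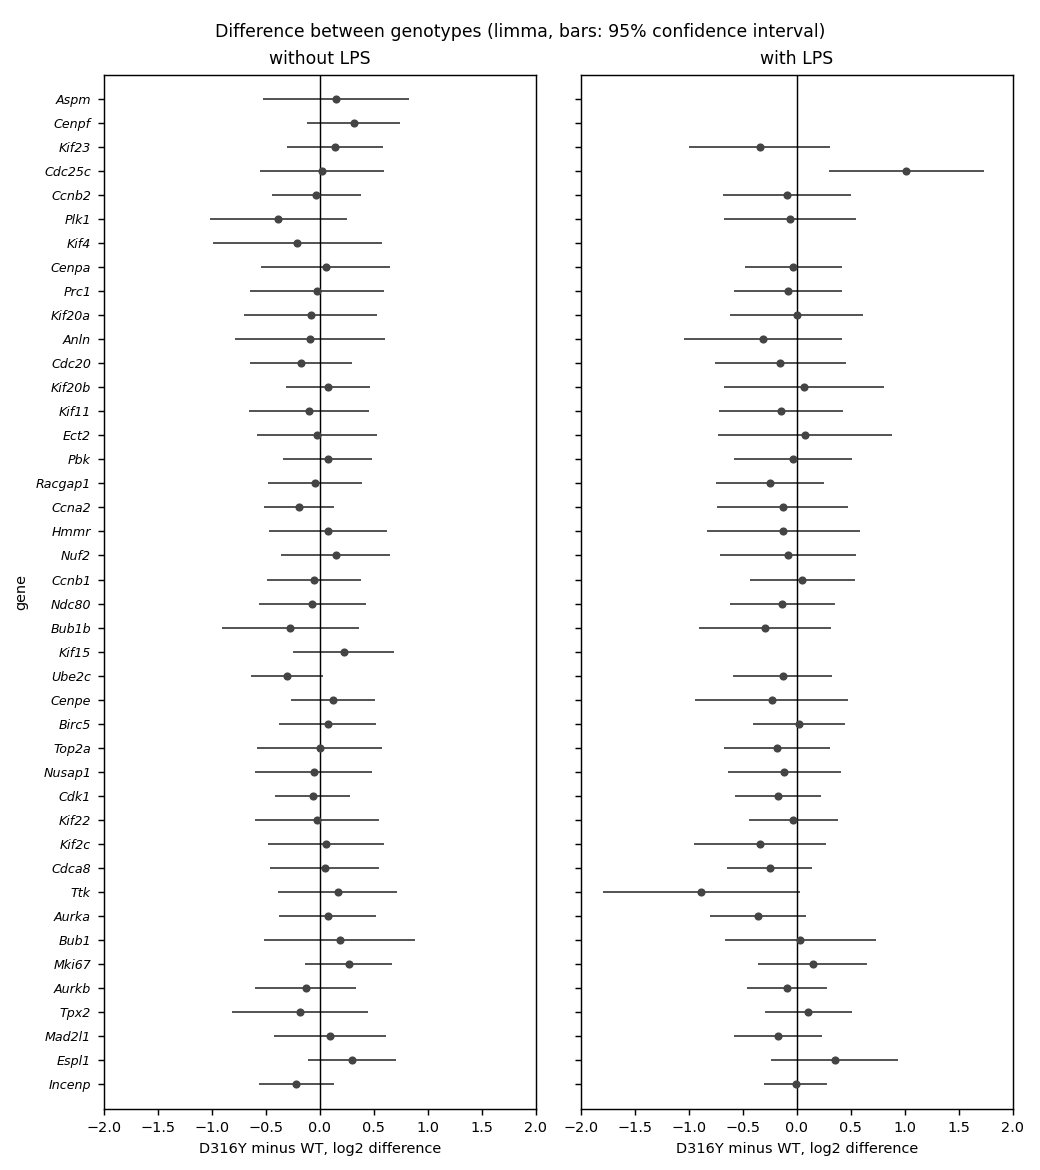
Difference between genotypes (log2, D316Y minus WT) of each gene without LPS (left, 42 genes) and with LPS (right, 38 genes), from limma, with 95% confidence intervals as bars. All intervals include 0 apart from that of Cdc25c with LPS, which runs from 0.29 to 1.73.

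Libraries of a group differed in the level of the 42 genes as a whole. In WT their mean was 3.94, 3.87 and 4.02 log2 CPM without LPS and 2.08, 1.94 and 1.77 with it. In D316Y it was 4.27, 3.86 and 3.71 without LPS and 1.68, 1.79 and 2.23 with it. The first unstimulated D316Y library was the highest of its group for 33 of the 42 genes and the third the lowest for 29. Among LPS-treated D316Y libraries, the third was the highest for 36 genes and the first the lowest for 26. Between unstimulated libraries of the same number, the mean difference of the 42 genes (D316Y minus WT) was 0.32, -0.02 and -0.31, so the pairs pointed both ways. With LPS these values were -0.40, -0.16 and 0.46. The 2 unstimulated libraries numbered 1 had the lowest shares of mitochondrial reads among unstimulated libraries, 0.449% in WT and 0.949% in D316Y, against 1.97% to 2.97%. The part of this in the results was not tested. With both left out, 41 genes fell with LPS in WT and 39 in D316Y, and between genotypes without LPS 8 differences were above and 34 below 0, with 0 called.

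**Figure D5:**
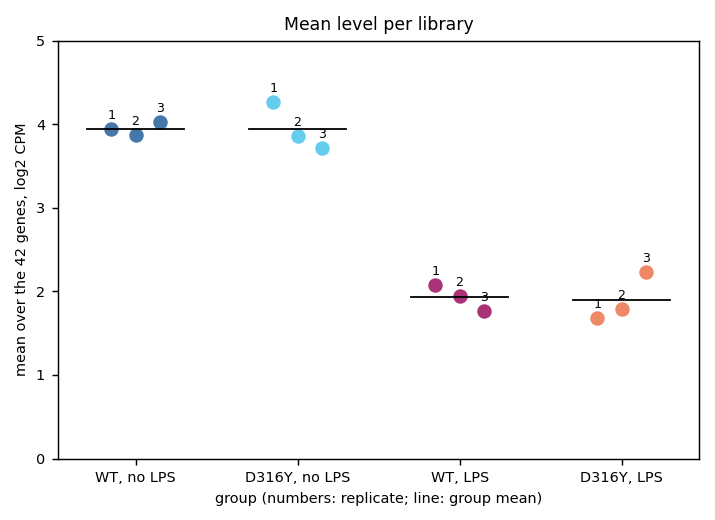
Mean of the 42 genes in each of the 12 libraries, in log2 CPM, with the replicate number above each point and a line at the mean of each group. The 6 libraries without LPS lie between 3.71 and 4.27 and the 6 with LPS between 1.68 and 2.23, and the genotypes overlap in both conditions.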

How the data were processed

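Values for 12 libraries were deposited by the authors as log2 CPM (reads scaled to an effective library size). Beside them were tables of the authors' own comparisons with log2 fold changes, p-values and adjusted p-values. The submitters' processing notes name edgeR, limma, STAR 2.5.1a, bcl2fastq and featureCounts 1.4.6-p5 of Subread, with no order. The sources used here do not give the genome build, annotation, library kit or strand setting, so overlapping genes may share reads. Of 12493 deposited rows, 52 repeated an identifier, which left 12441 genes.

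The low values gave whole reads (100.0% of values under 200 reads within 0.01 of a whole number, with 0.5 added before the log). Groups were compared with limma 3.58.1 in R 4.3.3 (lmFit, eBayes with trend and robust moderation) on the deposited log2 CPM, for genes that averaged 0 log2 CPM or more in either group compared, with Benjamini-Hochberg adjustment over all genes tested. The LPS comparisons and the interaction came from 1 fit of all 12 libraries, and the genotype comparisons from the 6 libraries concerned. The LPS comparison of WT was also tested on simulated data: 60% of changes of 1 and 100% of changes of 2 on the log2 scale were recovered among 11543 genes. Levels per length used exon lengths of GENCODE M21 (GRCm38).

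The 42 genes and the other lists were chosen with earlier results of these data known. Genes named are the 2 of each role group with the largest LPS difference in WT, the 3 with the smallest p in each genotype comparison and interaction, and up to 3 per other list with the smallest adjusted p. Others are said to be named after their values were seen. Same-numbered unstimulated WT and D316Y libraries deviated together over 11197 genes (correlations 0.656, 0.631 and 0.200). The other pairs of groups did not all do so. Alternatives covered the filter, centring, moderation, weights, scaling, replicate block and each library left out.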

Additional observations from a re-analysis of the deposited data

How the results depend on the processing

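Over 15 alternatives for each genotype, 40 to 42 of the genes fell with LPS in WT and 39 to 42 in D316Y, 0 rose, and 0 were called between genotypes or in the interaction under any alternative run. Scaling to the reads in the table, chosen after seeing the data, moved the median LPS difference of the 42 genes to -2.58 in WT and -2.64 in D316Y. Over all genes, the calls with LPS went from 2114 higher and 2214 lower to 914 higher and 5966 lower in WT, and from 2287 higher and 2237 lower to 1052 higher and 5953 lower in D316Y. Incenp in D316Y changed sign to 0.012 with each library centred on its median, and ranged from -0.0751 to 0.0198 with 1 library left out. Tpx2 in D316Y lost its call under centring (adjusted p = 0.0503), without trend and robust moderation (0.0506) and with only the 6 libraries compared (0.0632). The cause was not tested. With the replicate number as a block, 41 genes fell with LPS in each genotype and 0 were called between genotypes, where the median was -0.01 without LPS and -0.10 with it, and the block changed no call of the 42 genes. It raised the count over all genes between genotypes without LPS from 1 to 6. That count was 0 with no filter or without trend and robust moderation, 4 with all 12 libraries in 1 fit and 10 without both unstimulated libraries numbered 1, and it was 0 or 1 with single libraries left out. With LPS it was 5, and 1 without trend and robust moderation, 3 under scaling to table reads and 2 to 22 with single libraries left out, the 22 without WT LPS replicate 2. Low reads limit Aspm most.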
